A study of Rattus norvegicus with 9 samples.

Results

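The interleukin-1 and interleukin-18 axis was followed in rat liver through 10 genes: the cytokines Il1a, Il1b and Il18, the receptor antagonist Il1rn, the receptor chains Il1r1 and Il1rap, the decoy receptor Il1r2, the interleukin-18 inhibitor Il18bp, the protease Casp1 and the nuclear regulator Nfkbiz. Members were every probe set whose gene symbol in the platform annotation was exactly 1 of these names, which gave 15 of the 31042 probe sets analysed and 10 of 14217 genes named by them. Of these, 12 probe sets of 9 genes passed the filter on dim signal, and Il1r2 did not. The list was chosen on earlier results of these data, the model minus control differences of Il1b and Nfkbiz, so their values are given as a description and not as evidence that the axis stands out.

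The arrays came from 3 groups of 3 male-labelled Wistar rats weighing 180 to 220 g, drawn at random out of 12 in each group and 36 in the study. Drug livers came from rats given an agent labelled 7-P, model livers from the group labelled model, and control livers from the control group. What was done to the model rats, whether the drug rats had the same treatment, the identity of 7-P, its dose, the times and the ages are unknown here, which limits what the groups stand for. RNA of the whole organ was hybridised to 1 array per rat, so more cells of a type and more RNA per cell cannot be told apart.

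Interleukin-1 alpha and beta bind the same receptor, Il1r1, which then recruits Il1rap and signals through Myd88 and the Irak kinases to NF-kB. Il1rn occupies the receptor without signalling, and Il1r2 binds the cytokine but lacks a signalling domain. Interleukin-1 beta and interleukin-18 are made as precursors that caspase-1, the product of Casp1, cuts into active forms inside inflammasomes, and Il18bp binds free interleukin-18. Nfkbiz encodes an inducible nuclear member of the I-kappa-B family that acts on a subset of NF-kB target genes. In liver, Kupffer cells and recruited myeloid cells are the main known sources of interleukin-1, and hepatocytes respond to it with acute-phase proteins.

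The promoter windows of the 4 members with the largest model minus control difference among brightest probe sets past the filter are shown because NF-kB is the known route from interleukin-1 to its targets. Each runs from 250 bases before to 50 bases after the annotated start, as RefSeq gives it on build GRCr8, 5′ to 3′ on the gene's strand, with any match to the kappa-B consensus on either strand in capitals.
Nfkbiz, chr11:58251471-58251770, strand +: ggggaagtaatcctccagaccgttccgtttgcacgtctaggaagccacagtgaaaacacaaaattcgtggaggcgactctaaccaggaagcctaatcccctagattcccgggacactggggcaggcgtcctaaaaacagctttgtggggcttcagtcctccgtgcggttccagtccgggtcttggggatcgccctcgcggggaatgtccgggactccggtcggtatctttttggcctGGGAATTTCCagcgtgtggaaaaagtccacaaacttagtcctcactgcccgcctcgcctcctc
Il1b, chr3:137036532-137036831, strand -: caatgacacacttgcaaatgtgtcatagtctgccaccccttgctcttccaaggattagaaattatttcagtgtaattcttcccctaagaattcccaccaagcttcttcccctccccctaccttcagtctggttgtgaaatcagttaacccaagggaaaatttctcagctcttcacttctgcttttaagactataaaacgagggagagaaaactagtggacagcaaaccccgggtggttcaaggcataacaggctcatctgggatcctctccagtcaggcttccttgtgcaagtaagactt
Il1r1, chr9:50034133-50034432, strand +: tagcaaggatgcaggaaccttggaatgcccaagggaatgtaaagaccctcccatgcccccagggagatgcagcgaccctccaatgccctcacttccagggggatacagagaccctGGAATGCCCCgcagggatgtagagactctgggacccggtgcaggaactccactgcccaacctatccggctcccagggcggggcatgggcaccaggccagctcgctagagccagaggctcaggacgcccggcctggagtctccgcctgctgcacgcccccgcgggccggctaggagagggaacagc
Il18, chr8:59801822-59802121, strand +: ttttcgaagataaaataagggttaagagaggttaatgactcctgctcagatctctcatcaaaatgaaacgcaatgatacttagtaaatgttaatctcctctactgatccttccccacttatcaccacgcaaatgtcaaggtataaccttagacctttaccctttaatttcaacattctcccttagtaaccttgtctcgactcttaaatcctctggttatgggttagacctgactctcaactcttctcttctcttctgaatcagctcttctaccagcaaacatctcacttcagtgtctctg

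Of the 10 genes, 9 had a promoter window in the table, and Il1r2 is named only. Nfkbiz held the kappa-B match GGGAATTTCC, at position -13 from its annotated start. Il1r1 held GGGGCATTCC on the opposite strand, and Il1rap held GGGAAGCCCC, which matches on both strands and lies in both of its annotated windows. No kappa-B match was found in the other 6 windows. The consensus occurred in 7.51% of all 33469 windows of that length. The C/EBP pattern TTNNGNAA, searched on both strands, was in the windows of Il1a, Il1b, Il1rn and Casp1 and in 41.3% of all windows. The AP-1 pattern TGANTCA, which reads the same on both strands, was in those of Il1a and Il18 and in 7.33% of all. The TATA pattern TATAAA on the gene's own strand was in those of Il1a and Il1b and in 8.8% of all. Matches of different patterns did not overlap. These matches describe the letters of the windows only. Il1a and Il1b are neighbours on chromosome 3 with 0 protein-coding genes between them, and Il1r2 and Il1r1 lie on chromosome 9 with 1 between them, H3f3al3.

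The values are deposited signal intensities, normalised between arrays by quantiles on the log2 scale, and all differences are in log2 units. The albumin probe set, 1 of 11 hepatocyte markers past the filter, lay between 12.72 and 12.95 in all 9 arrays. Quantile normalisation makes the brightest values nearly alike between arrays, so this range says little about hepatocyte content. Of the 11, 5 were above 0 in model minus control, against 51.1% of all probe sets, and 6 below, against 48.9%. Without overlap 3 were higher, against 11.8%, and 3 lower, against 10.9%, among them Ass1 (-1.02). The trimmed mean of the deposited signal was 33.2 to 66.5 in drug, 34.5 to 43.4 in model and 34.1 to 80.4 in control arrays. The Gapdh ratio of 3′ over 5′ probe set signal, which is higher where less of the 5′ part was measured, was 1.31, 9.2 and 8.71 for drug 1, 2 and 3, 4.09, 12.7 and 9.77 for model 1, 2 and 3, and 1.52, 3.14 and 3.07 for control 1, 2 and 3. Every model array had a higher ratio (4.09 to 12.7) than every control array (1.52 to 3.14). A fit with a term for the ratio therefore rests on slopes inside the groups. It cannot separate the ratio from the group in model minus control. The beta-actin ratio of the same kind ran differently. It was 3.99, 11.5 and 8.63 for drug 1, 2 and 3, 12.8, 10.7 and 7.31 for model 1, 2 and 3, and 4.23, 8.41 and 7.59 for control 1, 2 and 3. Model and control arrays overlapped in it, and model 1 had the highest value. Drug 3 and control 2 differed from the other 7 arrays in sex-linked RNA. Xist was at 3.05 and 2.65 against 8.06 to 10.89 elsewhere, and Eif2s3y at 7.17 and 6.99 against at most 2.53. All 9 rats carried the label male. High Xist with low signal of the Y-linked Eif2s3y, as in the 7 arrays, does not match that label. The 7 include every model array, while the drug and control groups are mixed. It was drug 3 and control 2 that matched the label, and the reason was not tested. For member differences printed here that moved by over 1.5 times or changed sign without this pair of arrays, the value without them is given too.

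No probe set of the whole table passed in any of the 3 comparisons, and no member did (limma, Benjamini-Hochberg adjusted p under 0.05, 0.0% of 18625 probe sets called in each). At an unadjusted p under 0.05 the whole table gave 2245 probe sets in model minus control, 610 in drug minus model and 1345 in drug minus control. The members' adjusted p lay between 0.373 and 0.969 for model minus control, was 0.998 for drug minus model throughout, and lay between 0.676 and 0.993 for drug minus control. Of the members at that unadjusted level, 5 of 12 member probe sets had a positive model minus control difference, against 6.51% of all probe sets, and 0 a negative one, against 5.54%. Those 5 were Il1b, Il18, Casp1 and 1 probe set each of Il1r1 and Nfkbiz. Drug minus control gave 4 higher (Il1b, Il18, and those of Il1r1 and Nfkbiz) and 0 lower, against 4.19% and 3.03%, and drug minus model gave 0 and 0, against 1.47% and 1.8%. The median difference of the 12 was 0.82 in model minus control, -0.32 in drug minus model and 0.25 in drug minus control, beside 0.02, -0.02 and -0.02 for all probe sets past the filter. By sign alone, model minus control was above 0 for 8 of the 12, against 51.1% of all probe sets, and below 0 for 4, against 48.9%. Drug minus model was above 0 for 3, against 47.9%, and below 0 for 9, against 52.1%, while drug minus control was above 0 for 10, against 48.5%, and below 0 for 2, against 51.5%. The comparisons share arrays and are not independent of each other. With 3 arrays against 3, an exact permutation test of a single gene cannot give a p below 0.1.

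**Figure D1:**
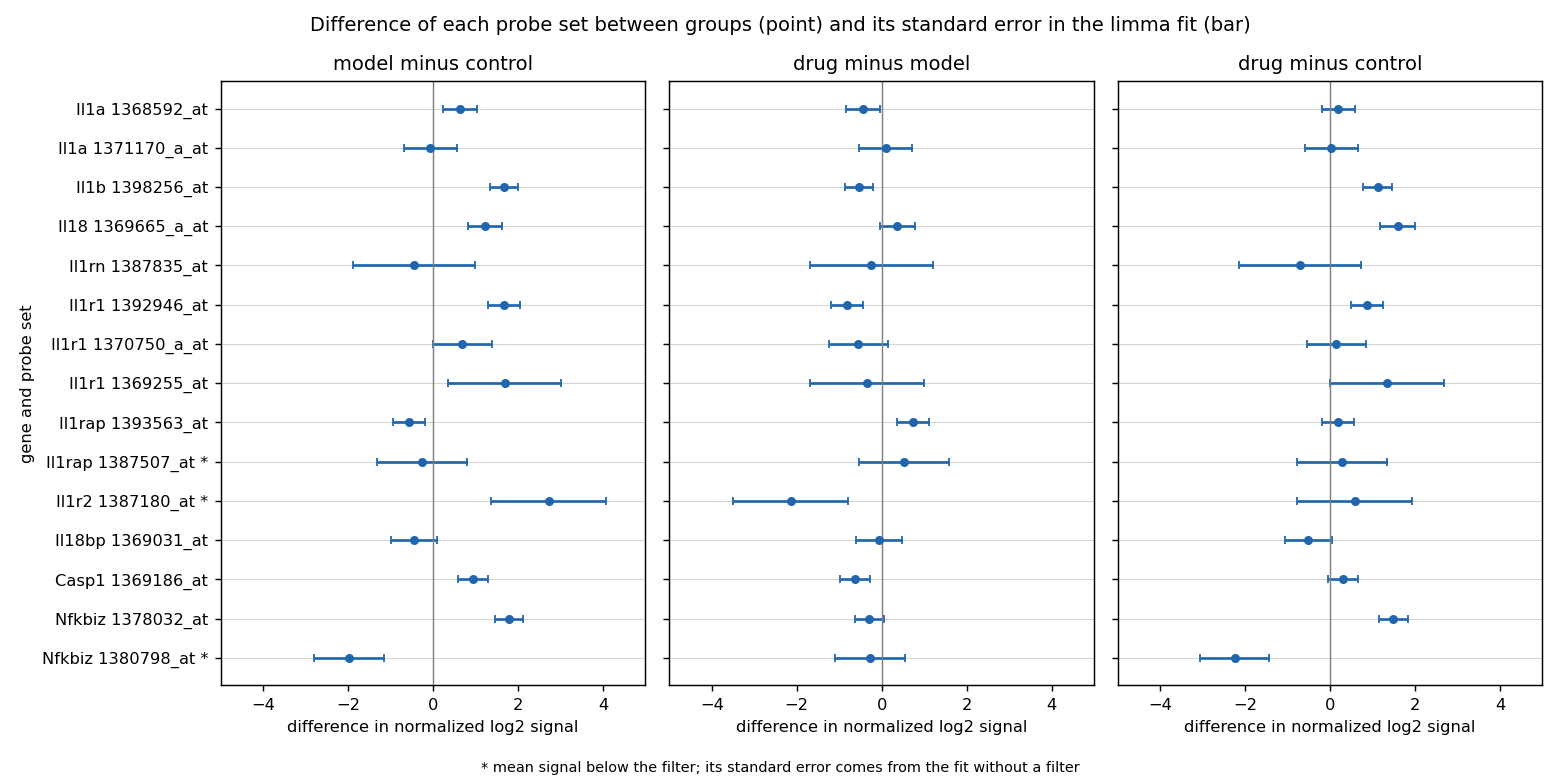
Difference in normalized log2 signal (x axis) for each of the 15 member probe sets (y axis) in the 3 comparisons, with the standard error of the limma fit as a bar. Il1b, Il18, Casp1 and the brightest probe sets of Il1r1 and Nfkbiz lie to the right of 0 in model minus control, while Il1rn, Il1r2 and the Il1r1 probe set 1369255_at have the widest bars, and a star marks the 3 probe sets below the filter.

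Among the cytokines, Il1b separated the groups in 3 steps. Its signal was 5.37, 5.46 and 5.61 in the drug livers, 5.81, 6.56 and 5.70 in the model livers, and 4.80, 3.81 and 4.46 in the control livers. Every model array lay above every drug array, and every drug array above every control array, although the gap between the lowest model and highest drug array was small. The means were 5.48 ± 0.121 in drug, 6.02 ± 0.471 in model and 4.35 ± 0.504 in control livers (SD, n = 3 each). Model minus control was 1.67 (SE 0.335), a 3.17-fold higher signal, drug minus model was -0.54 (SE 0.335), and drug minus control was 1.12 (SE 0.335). The order control, drug, model without overlap was met by 1 of the 12 member probe sets and by 0.188% of all probe sets past the filter, a pattern looked for after the Il1b values were seen. In none of the 23 alternatives did the 3 differences change sign, but some alternatives, named at the end, could not change a difference. Without drug 3 and control 2 the 3 differences were 1.39, -0.61 and 0.78, and with a term for the Gapdh ratio 1.59, -0.51 and 1.08. With the arrays left unnormalized, which put the median of all model minus control differences at -0.40, Il1b stood at 1.29, and the drug arrays then overlapped with both the model and the control arrays. Without model 2 the drug minus model difference was -0.27.

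Il18 was high in both model and drug livers. It read 5.56, 6.06 and 6.29 in drug, 5.69, 4.93 and 6.19 in model, and 5.0, 4.28 and 3.84 in control arrays. All drug arrays lay above all control arrays, whereas model 2 fell just under control 1. The difference was 1.22 (SE 0.405) in model minus control and 1.59 (SE 0.405) in drug minus control. Drug minus model was 0.37 (SE 0.405), within the spread of the model arrays, and was 0.03 without model 2 and 0.66 without model 3. Without drug 3 and control 2 the 3 differences were 1.18 in model minus control, 0.21 in drug minus model and 1.38 in drug minus control.

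Il1a, the neighbour of Il1b, had the same signs as Il1b in its brighter probe set at smaller sizes (Pearson r = 0.56 with Il1b over 9 arrays). This probe set, 1368592_at, gave 5.4, 5.06 and 4.79 in drug, 6.20, 5.37 and 5.0 in model, and 5.44, 4.32 and 4.92 in control arrays, and all groups overlapped. Model minus control was 0.63 (SE 0.391), drug minus model -0.44 (SE 0.391) and drug minus control 0.19 (SE 0.391). Without model 1 the first 2 were 0.29 and -0.1, and without drug 3 and control 2 the 3 were 0.34, -0.29 and 0.05. The dimmer probe set, 1371170_a_at, had means of 3.59 ± 0.942 in drug, 3.5 ± 0.682 in model and 3.57 ± 0.841 in control livers (SD, n = 3 each), with all 3 differences between -0.07 and 0.10. Without drug 3 and control 2 they were -0.25 in model minus control, 0.52 in drug minus model and 0.27 in drug minus control.

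Casp1, the enzyme that matures interleukin-1 beta and interleukin-18, read 5.01, 4.38 and 5.16 in drug, 4.95, 5.87 and 5.61 in model, and 4.50, 4.92 and 4.19 in control livers. Model arrays lay above control arrays, but model 1 and control 2 were almost level. The means were 4.85 ± 0.416 in drug, 5.48 ± 0.477 in model and 4.54 ± 0.365 in control livers (SD, n = 3 each). Model minus control was 0.94 (SE 0.349), drug minus model -0.63 (SE 0.349) and drug minus control 0.31 (SE 0.349). Drug arrays overlapped with those of both other groups, and drug minus model was -0.39 without drug 2. Without drug 3 and control 2 the values were 1.13 in model minus control, -0.78 in drug minus model and 0.34 in drug minus control.

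**Figure D2:**
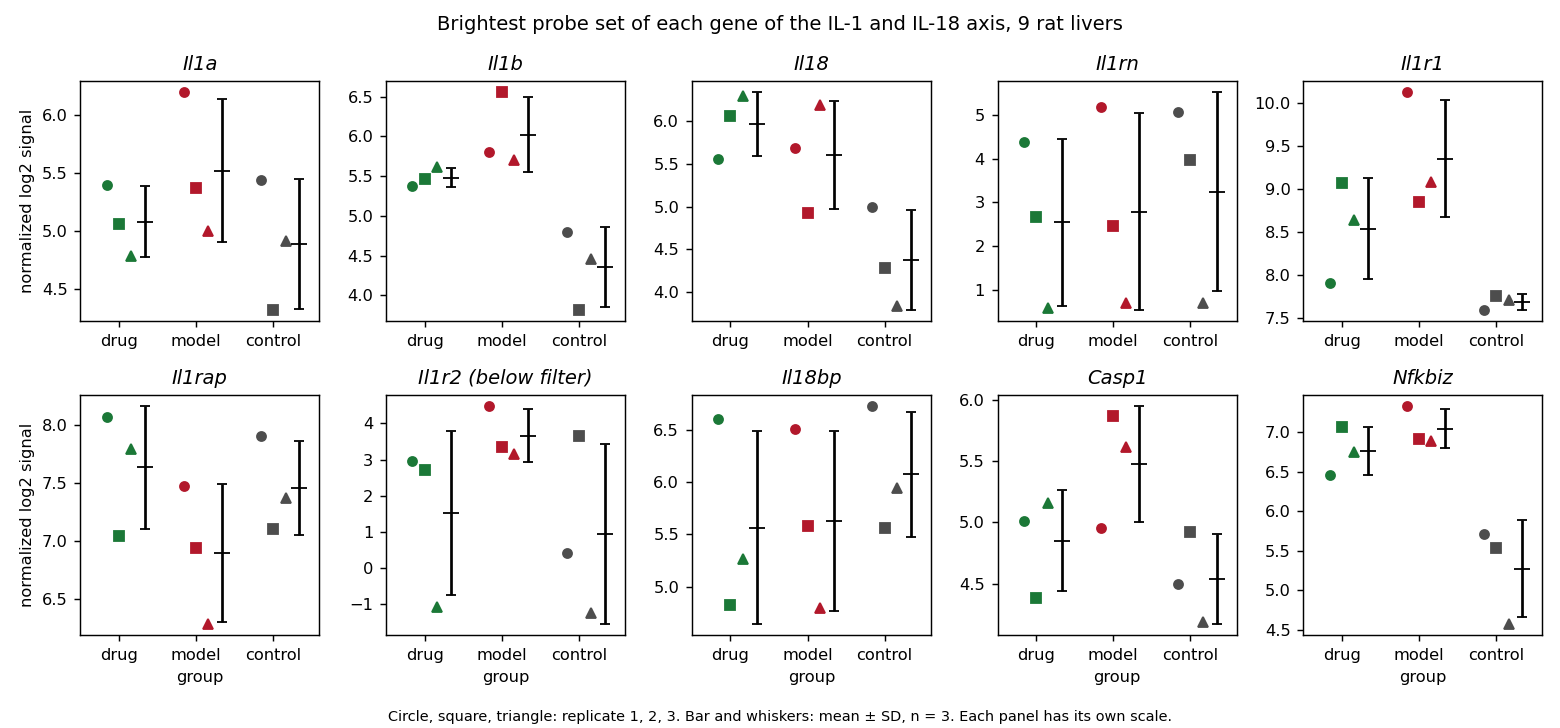
Normalized log2 signal (y axis, its own scale in each panel) of the brightest probe set of each of the 10 genes in the drug, model and control arrays, with mean and SD (n = 3). Il1b, Il1r1 and Nfkbiz are above control in all model and drug arrays, Il18 in all drug arrays, and Il1rn spreads from 0.57 to 5.18 inside the groups.

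On the receptor side the brightest Il1r1 probe set, 1392946_at, read 7.91, 9.07 and 8.64 in drug, 10.13, 8.85 and 9.08 in model, and 7.59, 7.76 and 7.71 in control livers. The control arrays were nearly level, and every model and every drug array lay above them. Drug 1 was close to control and drug 2 lay inside the model range. Model minus control was 1.67 (SE 0.374), a 3.18-fold higher signal, drug minus model was -0.81 (SE 0.374) and drug minus control 0.86 (SE 0.374). Unnormalized, these were 0.98, -0.65 and 0.33, and without drug 3 and control 2 they were 1.71, -0.86 and 0.84. Without model 1 drug minus model was -0.43. The other probe sets of the gene gave wider spreads. Probe set 1370750_a_at differed by 0.69 (SE 0.696) and 1369255_at by 1.68 (SE 1.34) in model minus control, and for both the groups overlapped. Over the 9 arrays these 2 followed each other (Pearson r = 0.84) more closely than either followed the brightest (r = 0.38 and 0.39), so the probe sets of Il1r1 disagree on the pattern inside groups.

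Il1rap, a chain shared by some receptors of the interleukin-1 family, ran the other way. Its brighter probe set, 1393563_at, read 8.07, 7.04 and 7.79 in drug, 7.47, 6.94 and 6.28 in model, and 7.90, 7.10 and 7.37 in control livers, with overlap between all groups. Model minus control was -0.56 (SE 0.378) and drug minus model 0.73 (SE 0.378). Without model 3 these were -0.25 and 0.43, and with a term for the Gapdh ratio the model minus control difference rounded to 0. The second probe set, 1387507_at, lay below the filter and did not follow the brighter one (r = -0.06).

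Il1rn, the receptor antagonist, read 4.39, 2.67 and 0.57 in drug, 5.18, 2.46 and 0.70 in model, and 5.08, 3.97 and 0.69 in control livers, so the spread inside each group was several times the difference between groups (model minus control -0.46, SE 1.44, or -0.1 without drug 3 and control 2). Il18bp read 6.60, 4.83 and 5.27 in drug, 6.51, 5.58 and 4.80 in model, and 6.73, 5.56 and 5.94 in control livers. Its differences were -0.45 (SE 0.549) in model minus control and -0.06 (SE 0.549) in drug minus model, or -0.7 and 0.08 without drug 3 and control 2. Il1r2, under the filter and near background, read 2.95, 2.71 and -1.09 in drug, 4.49, 3.34 and 3.15 in model, and 0.41, 3.66 and -1.24 in control livers. Every model array lay above every drug array, while control 2 lay among the model arrays. Its model minus control difference was 2.72 (SE 1.35), and 1.09 with an offset added before the log. It was 4.08 without control 2, also with drug 3 left out, and 1.63 without control 3. Drug minus model was -2.14 (SE 1.35), and -0.83 without drug 3, also with control 2 left out.

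Nfkbiz, the target gene, had the largest model minus control difference of the member probe sets past the filter. Probe set 1378032_at read 6.46, 7.07 and 6.75 in drug, 7.34, 6.92 and 6.89 in model, and 5.71, 5.54 and 4.57 in control livers. Model and drug arrays overlapped, and all 6 lay above the control arrays. The means were 6.76 ± 0.308 in drug, 7.05 ± 0.253 in model and 5.27 ± 0.617 in control livers (SD, n = 3 each). Model minus control was 1.78 (SE 0.335), a 3.43-fold higher signal, drug minus control 1.49 (SE 0.335) and drug minus model -0.29 (SE 0.335). With the Gapdh term the first was 1.78, and without drug 3 and control 2 it was 1.91. Drug minus model was -0.14 without drug 1. The second probe set of the gene, 1380798_at, went the opposite way at a signal below the filter. It read 2.62, 0.29 and 0.25 in drug, 1.22, 1.0 and 1.75 in model, and 3.26, 3.33 and 3.31 in control livers, a model minus control difference of -1.98 (SE 0.821, fit without a filter). The Pearson r between the 2 probe sets was -0.82 over 9 arrays, and which of them follows the Nfkbiz transcript was not tested.

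**Figure D3:**
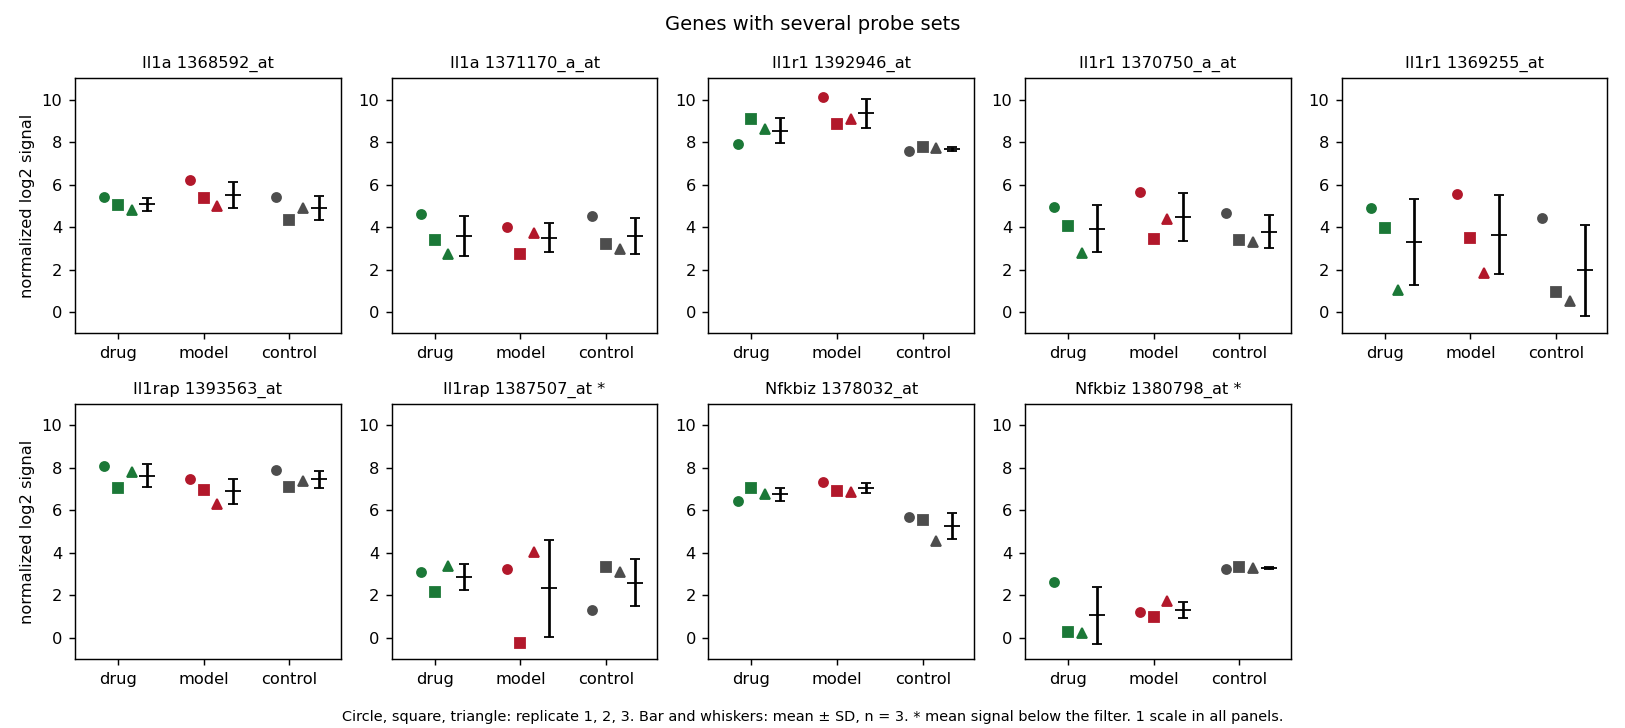
Normalized log2 signal (y axis, the same scale in all panels) of the 9 probe sets of Il1a, Il1r1, Il1rap and Nfkbiz in the drug, model and control arrays, with mean and SD (n = 3). The 2 Nfkbiz probe sets run in opposite directions, and the dimmer Il1r1 probe sets show a spread inside groups that the brightest does not.

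Counted over the 12 member probe sets past the filter, 4 (Il1b, Il1r1, Casp1 and Nfkbiz) had every model array above every control array, where 11.8% of all probe sets did, and 0 had every model array below, against 10.9%. In drug minus control 4 (Il1b, Il18, Il1r1 and Nfkbiz) had no overlap and were higher, against 6.05%, and 0 were lower, against 6.49%. In drug minus model 1 (Il1b) was lower without overlap, against 4.7%, and 0 were higher, against 3.35%. Both model and drug arrays stood above all control arrays for 3 of the 12, Il1b, Il1r1 and Nfkbiz, against 3.1%. Without drug 3 and control 2 the same 4 genes had model above control. Without control 1 the count was 8, adding Il18, 1 probe set of Il1a and the dimmer pair of Il1r1. With unnormalized arrays it was 2, Il1b and Nfkbiz, and the drug minus control count was 1, Il18. Since members were chosen with model against control in view, these counts carry no inference.

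In each group, replicate 1 had the lowest Gapdh 3′ to 5′ ratio. By the beta-actin ratio this held in drug and control livers, but model 1 had the highest value (12.8). For 7 of the 12 probe sets past the filter, replicate 1 had the highest signal in all 3 groups, which held for 13.5% of all probe sets. The 7 were both of Il1a, the dimmer pair of Il1r1, and Il1rn, Il1rap and Il18bp. Il1b, Il18, Casp1, Nfkbiz and the brightest Il1r1 probe set were not among them. With a term for the Gapdh ratio, the model minus control difference was 1.88 for Il1rn and 0.65 for Il18bp, both below 0 without the term. Since all model Gapdh ratios lay above all control Gapdh ratios, a fit with the term cannot separate that ratio from the group. The part of RNA quality in the model minus control differences was not tested.

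The wider pathway was read from gene lists, with 1 probe set per gene, and no gene of any list passed over all probe sets (limma adjusted p of 0.373 or more in each list). Of 17 measured genes of interleukin-1 receptor signalling past the filter, 13 had a model minus control difference above 0, where 51.1% of all probe sets did, with a median of 0.35. At an unadjusted p under 0.05, 3 were higher and 0 lower in model livers, against 6.51% and 5.54% of all probe sets. The 3 were the kinases Map3k8 (1.70), Chuk (0.83) and Ikbkb (0.80). Model and control arrays overlapped for Map3k8, with model 3 at 3.48 and control 2 at 3.56. Its signal was dim in control 1 and control 3, at 2.46 and 1.17. The adaptor Myd88 read 7.06, 7.24 and 7.53 in drug, 7.54, 7.50 and 7.41 in model, and 7.06, 7.10 and 7.23 in control livers, with model above control in every array by a mean of 0.35 (SE 0.212). The ubiquitin ligase Traf6 differed by 0.49, the kinase Irak1 by 0.35 and the inhibitory kinase homologue Irak3 by 1.28, the last at 0.56 without model 1. Irak4 lay below the filter. In drug minus model 16 of the 17 were below 0, where 52.1% of all probe sets were, with a median of -0.22. At an unadjusted p under 0.05, 0 were higher and 0 lower in that comparison, against 1.47% and 1.8%. Unnormalized, the model minus control median was -0.16 and Myd88 -0.21, where all probe sets had a median of -0.40.

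Of the other IL-1 family genes only 3 passed the filter (Il33, Sigirr and Il36b), with medians of 0.01 in model minus control, 0.24 in drug minus model and -0.30 in drug minus control. Il33, an alarmin of the family, was nearly level at 8.63 to 8.93 in drug, 8.23 to 8.99 in model and 8.34 to 8.78 in control livers. Sigirr, an inhibitory receptor of the family, had a model minus control difference of -0.86 (SE 0.378) with overlap, at an unadjusted limma p of 0.047 and an adjusted p of 0.412. Of 10 measured inflammasome and pyroptosis genes past the filter, 5 were above and 5 below 0 in model minus control. Their median was 0.08. At an unadjusted p under 0.05, 0 were higher and 0 lower, against 6.51% and 5.54% of all probe sets. Pycard, the inflammasome adaptor, differed by 0.57, Casp4, an inflammatory caspase, by 0.84, and Gsdmd, the pore-forming substrate, by -0.52. Without drug 3 and control 2 these were 0.19, 1.47 and -0.94. Il1rl1, the Il33 receptor, lay below the filter. Il18r1, Il18rap, Nlrp3, Nlrc4 and Aim2 had no single-gene probe set of that symbol and were not analysed here.

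Of 10 genes of NF-kB subunits and I-kappa-B proteins other than Nfkbiz past the filter, 0 had an unadjusted p under 0.05 in model minus control. The shares over all probe sets were 6.51% higher and 5.54% lower. The median model minus control difference of the 10 was 0.17. The subunit Relb had the largest, 1.5 (SE 0.824), with a drug minus model difference of -1.19 (SE 0.824), and its groups overlapped, control 1 being lowest at 0.96. The subunits Nfkb1 and Rela differed by 0.21 and -0.40, and the feedback inhibitors Nfkbia and Tnfaip3 by 0.13 and 0.24. Bcl3 is, like Nfkbiz, a nuclear cofactor of the I-kappa-B family. It read 4.62, 6.06 and 6.10 in drug, 6.80, 6.29 and 6.68 in model, and 5.27, 6.25 and 5.52 in control livers. Its model arrays lay above all others, with differences of 0.91 (SE 0.425) in model minus control and -1.0 (SE 0.425) in drug minus model. With the Gapdh term the first was 0.27, and without drug 1 the second was -0.51.

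Most of the genes past the filter that are known to respond to interleukin-1 in liver were highest in model 1. These were Cxcl1, Lcn2, A2m, Hp, Orm1, Sod2, Zc3h12a, Socs3, Cebpd and Steap4. The rest peaked elsewhere: Vcam1 in model 2 (6.32), Cebpb in model 3 (9.74), Icam1 in drug 3 (8.25) and Crp in control 1 (11.84). The summed normalised signal of the list was 22300 in model 1, 12900 in model 2 and 11800 in model 3. It was 13100 to 15100 in drug and 13100 to 15200 in control livers. Cxcl1, a neutrophil-attracting chemokine, read 5.16, 7.06 and 5.43 in drug, 9.29, 5.85 and 6.05 in model, and 3.91, 5.24 and 3.86 in control livers, with all model arrays above control and a difference of 2.73 (SE 0.874), or 1.61 without model 1. Lcn2, an iron-carrier-binding acute-phase protein and Nfkbiz target, read 3.39, 1.19 and 3.5 in drug, 9.25, -0.18 and 1.94 in model, and 3.34, 3.99 and 6.06 in control livers. A2m, an acute-phase protein of the rat, stood at 11.03 in model 1 and between 1.08 and 6.07 in the other 8 arrays, and was picked out after its values were seen. Il1b was not highest in model 1 but in model 2, while Il1r1 and Nfkbiz were highest in model 1. Socs3, a feedback inhibitor of cytokine signalling, read 3.90, 2.27 and -0.10 in drug, 4.80, 4.25 and 3.62 in model, and 4.17, 4.37 and 3.64 in control livers, a drug minus model difference of -2.20 (SE 0.854), or -1.14 without drug 3. Over the 14 genes past the filter the median was 0.29 in model minus control and -0.28 in drug minus model, which was 0.12 without model 1. At an unadjusted p under 0.05, 2 of the 14 had a positive model minus control difference, Cxcl1 and Steap4 (1.19), and 0 a negative one. The shares of all probe sets were 6.51% and 5.54%. In drug minus model 3 were negative at that level, Socs3, Cebpd (-1.37) and Steap4 (-1.04), and 0 positive, against 1.8% and 1.47%. Il6 and Ccl2 lay below the filter.

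**Figure D4:**
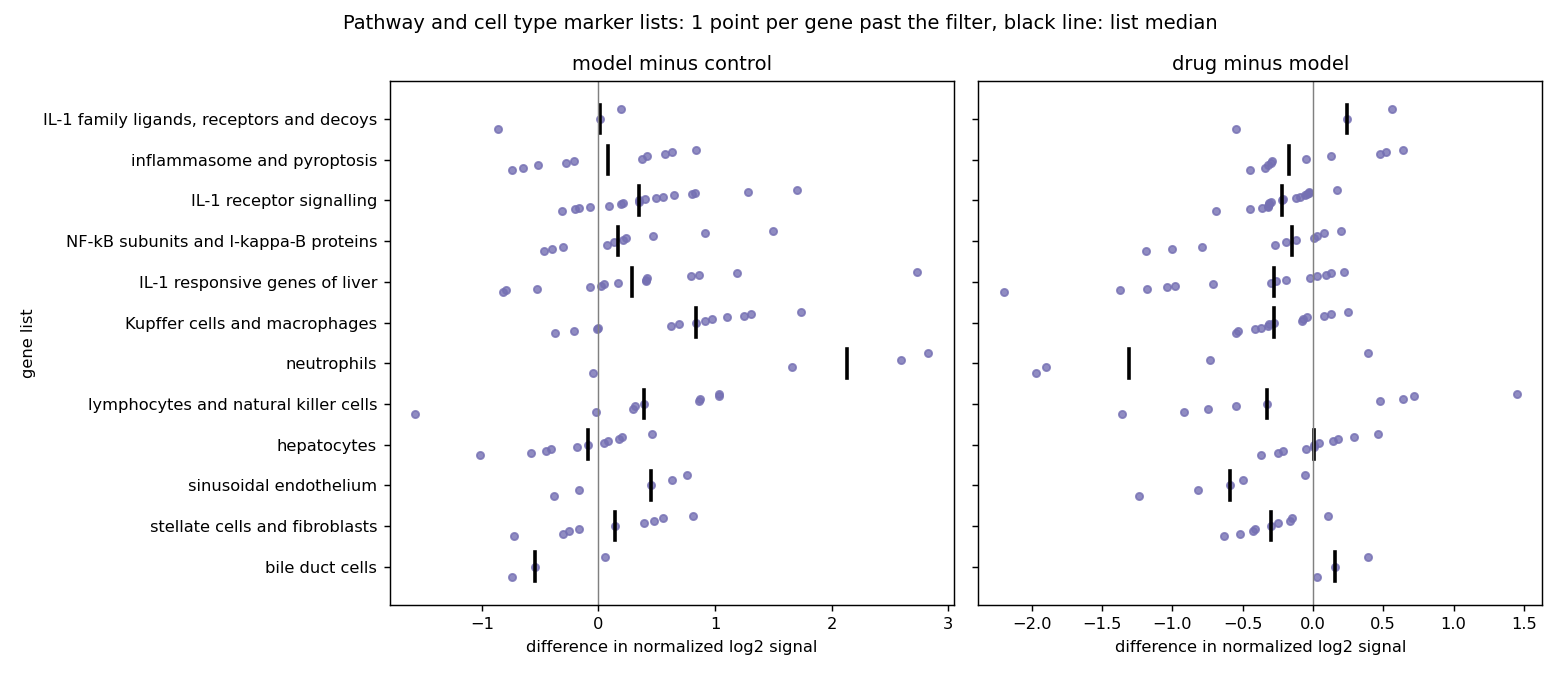
Difference in normalized log2 signal (x axis) of each gene past the filter in 5 pathway lists and 7 cell type marker lists (y axis), for model minus control and drug minus model, with the list median as a black line. Interleukin-1 receptor signalling, macrophage and neutrophil genes lie mostly to the right in model minus control and to the left in drug minus model, a pair of comparisons that share the model arrays.

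Markers of myeloid cells, known to make interleukin-1, differed in direction among themselves. Of 13 measured Kupffer cell and macrophage markers past the filter, 9 were above 0 in model minus control, where 51.1% of all probe sets were, with a median of 0.84, or 0.44 without drug 3 and control 2. At an unadjusted p under 0.05, 4 were higher, where 6.51% of all were, Cd5l (1.74), Adgre1 (1.31), Cd163 (1.25) and Fcer1g (1.10). The other 4 were not above 0: Cd14 (-0.37), with every model array below every control array, C1qb (-0.21), Lyz2 (-0.01) and C1qa, which rounded to 0. Their summed normalised signal ranged from 2220 to 3410 in drug, 2400 to 4100 in model and 1590 to 2530 in control livers. Cd163, a scavenger receptor, read 5.91, 5.75 and 6.0 in drug, 5.64, 6.27 and 5.98 in model, and 4.87, 4.73 and 4.53 in control livers, so drug and model lay together above control. Cd68 and the growth factor receptor Csf1r differed by 0.62 and 0.69 in model minus control, with Cd68 overlapping. Of 4 neutrophil markers past the filter, 3 were higher at an unadjusted p under 0.05, where 6.51% of all probe sets were. These were S100a8 (2.59), S100a9 (2.83) and Csf3r (1.66), while Mmp8 was at -0.05. Model and control arrays overlapped for all of the 4 but S100a9. The sum of the 4 ranged from 139 to 1480 in drug, 439 to 2060 in model and 118 to 326 in control livers, with drug 2 inside the model range. It weighs S100a9, the brightest of them in every array, most. Lymphocyte and natural killer markers summed to 133 to 186 in drug, 128 to 224 in model and 87 to 179 in control livers. Sinusoidal endothelial markers summed to 445 to 513 in drug, 689 to 1020 in model and 595 to 667 in control livers, with no overlap between any groups. This sum weighs Lyve1, the marker with the highest group means, most. In model minus control 3 of the 5 markers were above 0 and 2 below, Gpr182 (-0.38) and Kdr (-0.17). All 5 were below 0 in drug minus model, where 52.1% of all probe sets were, with a median of -0.59. For 4 of them (Lyve1, Stab2, Gpr182 and Pecam1) every drug array lay below every model array, against 4.7% of all probe sets. No marker was at 0 in any array. The part of cell numbers in the Il1b, Casp1 and Nfkbiz differences was not tested.

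**Figure D5:**
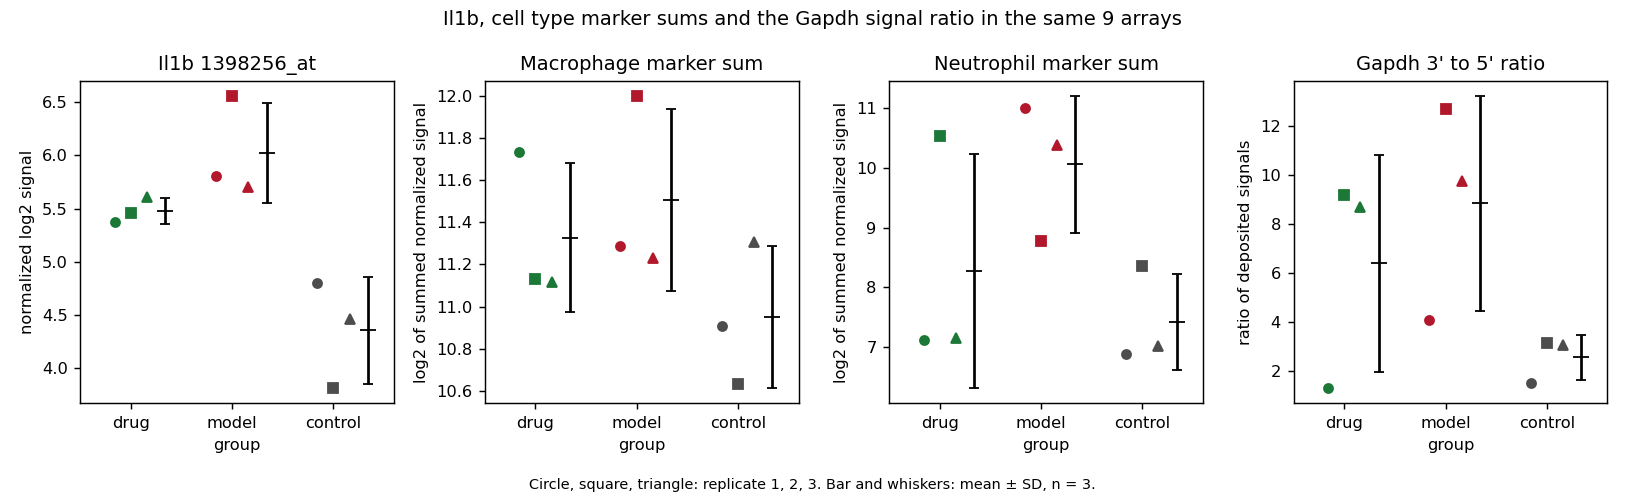
Il1b signal (normalized log2), log2 of the summed macrophage and neutrophil marker signal, and the Gapdh 3′ to 5′ ratio of the deposited signals in the drug, model and control arrays, with mean and SD (n = 3). Model 2 has the highest Il1b, the highest macrophage sum and the highest Gapdh ratio, 12.7, whereas the neutrophil sum is highest in model 1.

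Over the 9 arrays Nfkbiz followed Il18 (Pearson r = 0.84), Il1r1 (0.83) and Il1b (0.80), and Il18bp followed Il1rap (0.75) and Il1rn (0.72), while Il1b and Il1rn gave -0.14. Il1a was about as close to Il1b (0.56) and Il1r1 (0.55) as to Il18bp (0.57) and Il1rn (0.52). These correlations describe arrays that share group, RNA quality and normalisation, and carry no p. Among 13934 single-gene probe sets past the filter, those nearest to Il1b in pattern were Cep57l1 (r = 0.973), Nufip1 (0.960) and the leukocyte phosphatase Ptprc (0.959). Nearest to Il18 were Cntrl (0.975), Cnot6l (0.965) and Lgals8 (0.959), and nearest to Nfkbiz were Tmem106a (0.964), Rsbn1 (0.964) and Rnf145 (0.949). Il1r1 was closest to the zinc transporter Slc39a14 (0.979), the phosphatase Ptpn2 (0.970) and the complement component C5 (0.967). Casp1 was closest to Grap (0.933), Ap5m1 (0.928) and Prpf18 (0.914), and Il1a to Ptpn12 (0.934), Ube2q2 (0.932) and Ola1 (0.930). Il18bp was nearest to the mitochondrial proteins Pitrm1 (0.983), Hspd1 (0.980) and Chchd3 (0.977), Il1rap to Rhbdd2 (0.950), Aar2 (0.948) and Cnn3 (0.946), and Il1rn to Fastkd2 (0.970), Eif1a (0.967) and Rnf138 (0.963).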

How the data were processed

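Liver RNA of 9 rats was measured on a 1-colour Affymetrix array, following the maker's standard protocol per the labels. The values used were the signal intensities as deposited by the authors, 1 per probe set and array, made with GCOS 1.2 per the submitters' processing notes, with settings and scaling not given in the sources used here. Since deposited intensities had no common scale, log2 values were quantile-normalised, which removes any true difference in total RNA. Of 31099 probe sets 57 controls were left out. Of the rest, 20826 had 1 gene symbol in the platform annotation, 436 several and 9780 none. Probe sets at or above the 40th percentile of mean log2 signal, 2.82, were tested (18625). No detection calls were used here, so the filter stands in for background. Differences came from limma 3.58.1 in R 4.3.3 (lmFit, eBayes with intensity trend, all 9 arrays, two-sided), with Benjamini-Hochberg adjustment over all tested probe sets. Probe sets below the filter took their SE from a fit without it. The fit was tested on simulated data. The number of arrays limits precision, and rats are taken as separate animals per the labels.

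Members, lists and tests were chosen with earlier results of these data known. Named were all member probe sets, the 3 most alike single-gene probe sets of each member (Pearson r, 9 arrays) and fixed genes of 12 pathway and marker lists, each by its brightest probe set. Exceptions were picked after their values were seen: Map3k8, Chuk, Ikbkb, A2m, Steap4, Cebpd, Cd5l, Adgre1, Fcer1g, Mmp8, Relb, Il36b, Cd14, C1qa, C1qb, Lyz2, Lyve1, Stab2, Gpr182, Pecam1, Kdr, Ass1, Vcam1, Cebpb, Icam1, Hp, Orm1, Sod2, Zc3h12a, Crp and the sex-linked genes. Same-numbered arrays did not all deviate together (correlations of deviations from -0.01 to 0.48), so the replicate block was an alternative only.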

Additional observations from a re-analysis of the deposited data

How the results depend on the processing

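Each difference was recomputed under 23 alternatives. Changing the filter, the intensity trend or the moderation, adding the replicate block or fitting only the groups compared alters the test but not the difference. Leaving out an array of the group not compared also leaves the difference as it was, so none of these could turn a sign. Il1b, Casp1 and the brighter probe sets of Il1r1 and Nfkbiz kept their sign in all 3 comparisons under the 23 alternatives, as did Il18. Without moderation, with no intensity trend, with no filter, with a 60th percentile filter, with median centring, trimmed mean scaling, an offset of 5 signal units, the Gapdh term, or without drug 3 and control 2, 0 probe sets passed in all comparisons. Unnormalized arrays gave 1 probe set in model minus control, Fmo1, and array weights gave 4 (Slfn9, Siglec5, Fmo1 and Igsf6). Fitting only the groups compared gave 1 in drug minus model, Fmo1, and leaving out drug 1 with control 1 gave 1 (Fmo1) in each of model minus control and drug minus model. Without control 1 the call was again Fmo1, without model 1 an unnamed probe set and without model 2 a probe set of several genes. With each array left out in turn the counts were 0 to 1 in model minus control, 0 to 1 in drug minus model and 0 in drug minus control. No member was among these probe sets, and the lowest adjusted p of a member under any alternative was 0.0696, for Il1b and Nfkbiz in model minus control. With the replicate block, 3 probe sets passed in model minus control (Scd, Thumpd3-as1 and Siglec5), and unadjusted calls were 3633, 1082 and 2235 for model minus control, drug minus model and drug minus control, against 2245, 610 and 1345 without it. The numbers were not taken to pair the rats, since not every same-numbered pair correlated above 0.1. Unadjusted calls in model minus control ranged to 4031 with array weights. Against the main setting, the median difference of all probe sets without normalization was -0.40 in model minus control, 0.06 in drug minus model and -0.36 in drug minus control. Of the 15 member probe sets, 5 changed sign in model minus control with the Gapdh term, 5 in drug minus control without normalization, and 5 in drug minus model without drug 3. They did not include Il1b, Il18, Casp1 or the brighter probe sets of Il1r1 and Nfkbiz. The cause was not tested. Low signal limits Il1r2, Il1rn and the dim probe sets of Il1rap, Il1r1 and Nfkbiz.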
